A study of Mus musculus with 42 samples.

Results

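The genes described here encode the main antioxidant enzymes of the lung: the superoxide dismutases Sod1, Sod2 and Sod3, catalase (Cat), the glutathione peroxidases Gpx1 and Gpx3, and the peroxiredoxins Prdx1, Prdx2, Prdx5 and Prdx6. They were chosen by name, as 10 genes of which 8 had a named probe on the array, out of 19053 genes with a named probe. Each gene is represented by the probe with the highest mean signal over the 42 arrays. Prdx5 and Prdx6 are not analysed here, since no probe carried either symbol or its aliases in the annotation used.

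Superoxide dismutases convert superoxide into hydrogen peroxide. Sod1 does so in the cytosol, Sod2 in the mitochondrial matrix and Sod3 outside the cell, where it binds to the matrix of vessel and airway walls. Catalase, in peroxisomes, breaks hydrogen peroxide into water and oxygen. Glutathione peroxidases reduce peroxides with glutathione, Gpx1 inside cells and Gpx3 as a secreted enzyme. Most peroxiredoxins reduce them with electrons from thioredoxin. Ionising radiation produces reactive oxygen species directly, and in a lung the tissue is also exposed to the oxygen of inhaled air.

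The study profiled whole left lungs of 42 mice of strain 129S2 K-rasLA1, which carry the G12D mutant of K-ras in every group, controls included, and in which lung tumours arise spontaneously. The control group held 13 unirradiated mice (7 males and 6 females). The fractionated group held 14 mice (7 males and 7 females) that received 5 exposures of 0.2 Gy of 56Fe particles, and the acute group held 15 mice (8 males and 7 females) that received 1.0 Gy in 1 exposure. Particle energy was 1.0 GeV per nucleon and lungs were removed on day 70, while the labels give no ages. The design compares lungs late after exposure with unexposed ones, and a divided dose with a single one. Because the tissue was a whole lobe, a lower signal can mean fewer cells of a type or less RNA per cell, and these cannot be told apart.

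Between 16264 and 18289 probes were detected on an array, and all 7 alveolar type 2 cell markers, surfactant genes among them, were tested, with a mean log2 signal of 13.36 to 14.55 over the 42 lungs. The series' design gives 13 as the size of the fractionated group, whose label is on 14 arrays. Fractionated replicate 13, a female, stood apart, with a correlation of 0.8659 to the median profile where the other 41 arrays had at least 0.9618. Of the 8 slides, 7 held all 3 groups and the other held 1 fractionated male.

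In the 300-base promoter windows of RefSeq (250 bases before and 50 after a start, build GRCm38.p6), 8 of the 10 genes had an entry. Sod3 and Prdx6 had none and were not searched, while Prdx5, which had no named probe, was searched. All 8 genes with an entry held a GC box (GGGCGG on either strand), against 35.7% of all 32851 windows. The core of the antioxidant response element (TGACNNNGC on either strand), the letters that the stress-responsive factor Nrf2 is known to bind, was found for Sod1 and Prdx1 only, against 12.4% of all windows. These stretches are shown because they are the only 2 matches among the 8 genes with an entry. Capitals mark the core, which lies on the strand opposite to the gene, from base -56 of the Sod1 start (chr16:90220681-90220739, plus strand) and from base -133 of the Prdx1 start (chr4:116685441-116685499, plus strand).
Sod1: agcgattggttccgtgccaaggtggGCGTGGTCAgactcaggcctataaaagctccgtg
Prdx1: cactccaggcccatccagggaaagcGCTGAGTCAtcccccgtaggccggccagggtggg

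The Prdx1 core overlaps an AP-1 site (TGACTCA on either strand), and a second AP-1 site starts at base -237 of Prdx1. No other enzyme with an entry held an AP-1 site in its window, against 5.2% of all windows. Gpx3, the secreted glutathione peroxidase, is shown from base -250 to base -1 (chr11:54902604-54902853, plus strand), because it was the 1 enzyme called in any comparison. Capitals mark its GC box and a CCAAT box on the opposite strand.
Gpx3: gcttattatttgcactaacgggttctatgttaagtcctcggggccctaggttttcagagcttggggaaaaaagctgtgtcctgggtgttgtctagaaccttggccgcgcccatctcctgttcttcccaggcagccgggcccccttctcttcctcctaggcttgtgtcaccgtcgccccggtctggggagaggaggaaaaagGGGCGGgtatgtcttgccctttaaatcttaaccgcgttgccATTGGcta

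A match is a description of these letters and not a site of binding. The Gpx3 window held neither the antioxidant response core nor an AP-1 site, which says only that these letters are not in this window.

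All 8 measured enzymes were detected on 42 of 42 arrays. None of them passed the test between irradiated and control lungs, or between the fractionated and acute groups, at 70 days. In the fit with group and sex as terms (limma, Benjamini-Hochberg adjustment over 17927 probes), 0 of 8 enzymes were called for fractionated against control lungs, where 0.0% of all probes were called, and 1 enzyme, Cat, had an unadjusted p under 0.05, as did 784 probes (4.37%). For acute against control lungs 0 of 8 were called (0.0% of all probes) and 0 had an unadjusted p under 0.05, as did 253 probes. For fractionated against acute lungs 0 of 8 were called (0.0% of all probes), again with 0 at an unadjusted p under 0.05, against 372 probes. The F test over the 3 groups called 0 of 8 enzymes (0.0% of all probes), with adjusted p-values of 1.0. The median difference of the enzymes was -0.08 for fractionated against control, with 2 higher and 6 lower, beside -0.0040 over all probes, and it was -0.05 without fractionated replicate 13 and -0.03 with median scaling, with the same counts. For acute against control it was 0.0046, with 5 higher and 3 lower, beside 0.0075 over all probes.

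**Figure D1:**
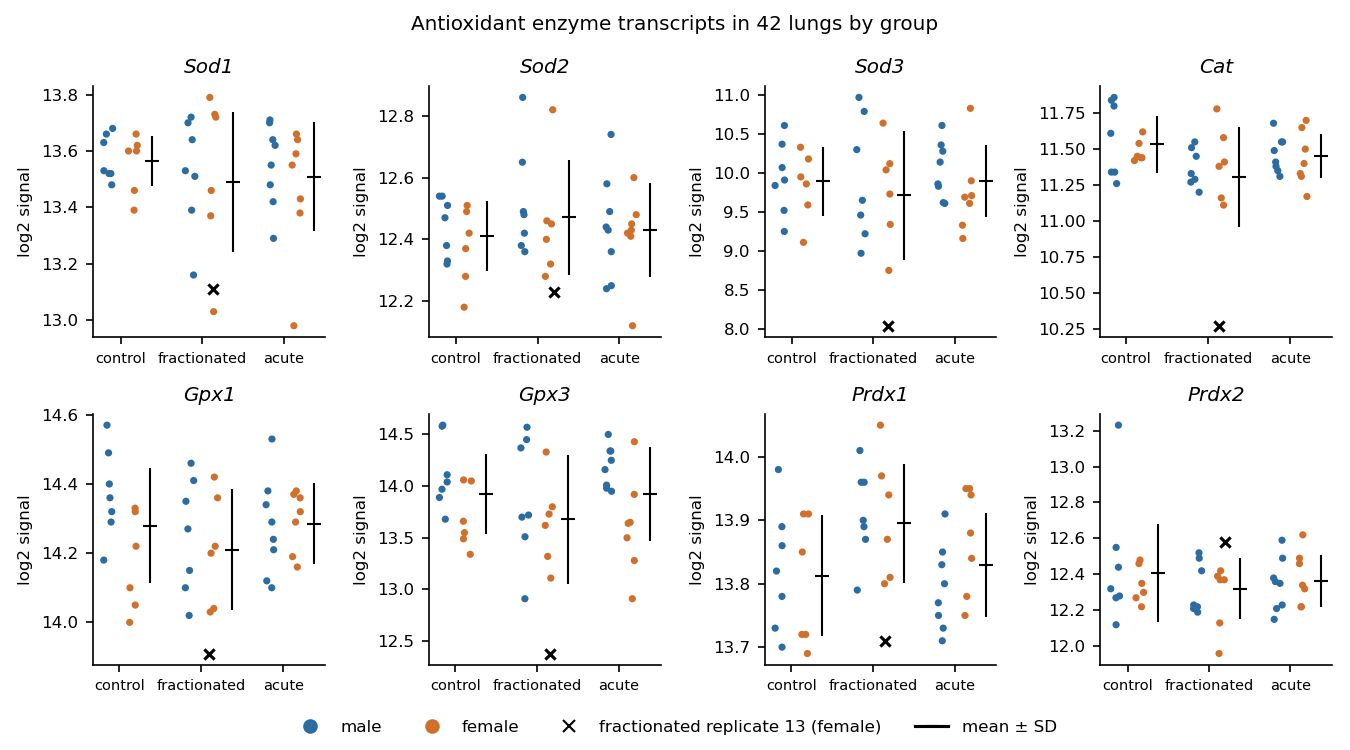
Normalised log2 signal (y axis) of the 8 measured antioxidant enzymes in each of 42 lungs by group (x axis), with males in blue, females in orange, fractionated replicate 13 as a cross, and the group mean ± SD as a bar. The groups overlap for every enzyme, and the cross lies below all other lungs for Cat, Sod3, Gpx3 and Gpx1.

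The plot of signals by group shows that the 3 groups overlapped for all 8 enzymes. Sod1, the cytosolic copper and zinc enzyme, ranged from 13.39 to 13.68 in control lungs (median 13.60), from 13.03 to 13.79 in fractionated lungs (median 13.52) and from 12.98 to 13.71 in acute lungs (median 13.55), in normalised log2 signal. The medians lay close together, and the lowest lungs were in the irradiated groups. The standard deviation of Sod1 was 0.088 in control, 0.25 in fractionated and 0.19 in acute lungs, and this difference in spread was not tested. Its fitted difference was -0.07 ± 0.074 (SE, log2; n = 14 and 13) for fractionated against control, with a 95% interval of -0.22 to 0.08 and a value of -0.05 without replicate 13, and -0.06 ± 0.073 for acute against control, with an interval of -0.20 to 0.09.

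Sod2, the mitochondrial manganese enzyme and a classical target of inflammatory signals, ranged from 12.18 to 12.54 in control lungs (median 12.42), from 12.23 to 12.86 in fractionated lungs (median 12.43) and from 12.12 to 12.74 in acute lungs (median 12.43). The 3 medians nearly coincided, and the highest lungs were irradiated ones. Its difference was 0.06 ± 0.062 for fractionated against control (95% interval -0.06 to 0.19) and 0.02 ± 0.061 for acute against control (interval -0.10 to 0.14).

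Sod3, the extracellular enzyme, varied most. It ranged from 9.11 to 10.61 in control lungs (median 9.91), from 8.04 to 10.97 in fractionated lungs (median 9.69) and from 9.16 to 10.83 in acute lungs (median 9.83). Both the lowest and the highest lung were fractionated ones, and the lowest was fractionated replicate 13. The difference for fractionated against control was -0.17 ± 0.22 (95% interval -0.61 to 0.28), so that a fold between 0.655 and 1.21 was not excluded by the interval, and without replicate 13 the fractionated mean was 9.84 against 9.89 in control lungs.

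Cat, the peroxisomal enzyme, had the smallest p of the 8 in the fractionated comparison. Its signal ranged from 11.26 to 11.86 in control lungs (median 11.45), from 10.27 to 11.78 in fractionated lungs (median 11.35) and from 11.17 to 11.70 in acute lungs (median 11.41). The groups overlapped, and 1 fractionated lung, replicate 13, lay far below the rest. The fitted difference for fractionated against control was -0.23 ± 0.095 (95% interval -0.42 to -0.03; 0.855-fold; unadjusted p = 0.0217 and adjusted p = 0.934 by limma). On each of the 7 slides that held both groups the fractionated mean was the lower one, by between 0.0067 and 0.71, or at most 0.28 without replicate 13. Without that lung the fitted difference shrank to -0.15 (limma, unadjusted p = 0.0457 and adjusted p = 1.0). With slide as a block and without that lung it was -0.16 (limma, unadjusted p = 0.0071 and adjusted p = 0.866). The acute difference was -0.08 ± 0.093 (interval -0.27 to 0.10), and the acute mean was the lower one on 6 of 7 slides.

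Gpx1, the abundant intracellular selenoenzyme, ranged from 14.001 to 14.57 in control lungs (median 14.32), from 13.91 to 14.46 in fractionated lungs (median 14.21) and from 14.10 to 14.53 in acute lungs (median 14.29). The fractionated median was the lowest of the 3, inside the range of both other groups. Its difference was -0.07 ± 0.060 for fractionated (95% interval -0.19 to 0.05) and 0.0070 ± 0.059 for acute against control lungs (interval -0.11 to 0.13).

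Gpx3 ranged from 13.34 to 14.59 in control lungs (median 13.97), from 12.38 to 14.57 in fractionated lungs (median 13.71) and from 12.91 to 14.50 in acute lungs (median 13.98). Control and acute medians were nearly equal, and the fractionated median was lower by less than the spread within any group. The difference was -0.22 ± 0.16 for fractionated (95% interval -0.55 to 0.10) and 0.0022 ± 0.16 for acute against control lungs (interval -0.32 to 0.32). Leaving out replicate 13 changed the fractionated value to -0.14.

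Prdx1, a cytosolic peroxiredoxin, was the steadiest enzyme of the set. It ranged from 13.69 to 13.98 in control lungs (median 13.82), from 13.71 to 14.05 in fractionated lungs (median 13.89) and from 13.71 to 13.95 in acute lungs (median 13.83). The fractionated lungs sat a little higher, with overlap throughout. The difference for fractionated against control was 0.08 ± 0.042 (95% interval -0.0017 to 0.17; limma, unadjusted p = 0.0546 and adjusted p = 0.934), and the fractionated mean was the higher one on 6 of 7 slides. Without replicate 13 it was 0.10 (limma, unadjusted p = 0.0179 and adjusted p = 1.0). Its acute difference was 0.02 ± 0.041 (interval -0.07 to 0.10).

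Prdx2, the peroxiredoxin abundant in red blood cells, ranged from 12.12 to 13.23 in control lungs (median 12.32), from 11.96 to 12.58 in fractionated lungs (median 12.37) and from 12.15 to 12.62 in acute lungs (median 12.35). The high end of the control group was 1 male, control replicate 6, which lay above every other lung, the next highest being 12.62. The difference was -0.08 ± 0.079 for fractionated (95% interval -0.24 to 0.08) and -0.05 ± 0.078 for acute against control lungs (interval -0.20 to 0.11). A p that misses the threshold does not show that the groups were alike, and the intervals above give the range of differences that these arrays allow.

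For fractionated against acute lungs, which compares the divided with the single dose, the 8 differences ran from -0.23 for Gpx3 (95% interval -0.54 to 0.09) to 0.06 for Prdx1 (interval -0.02 to 0.15). Cat lay at -0.14 (interval -0.33 to 0.04) and Sod3 at -0.18 (interval -0.61 to 0.25). Without replicate 13 these became -0.14 for Gpx3, -0.06 for Cat and -0.06 for Sod3. The comparisons with control share the same 13 control lungs and are therefore not independent of each other. Other probes of the enzymes were close to background: the second Sod1 probe was detected on 40 arrays and the second Prdx2 probe on 23, and neither was called in any comparison. The second Sod1 probe lay at 0.17 ± 0.20 for acute against control, where the main probe gave -0.06. For fractionated against acute it lay at -0.33 ± 0.20, where the main probe gave -0.02.

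**Figure D2:**
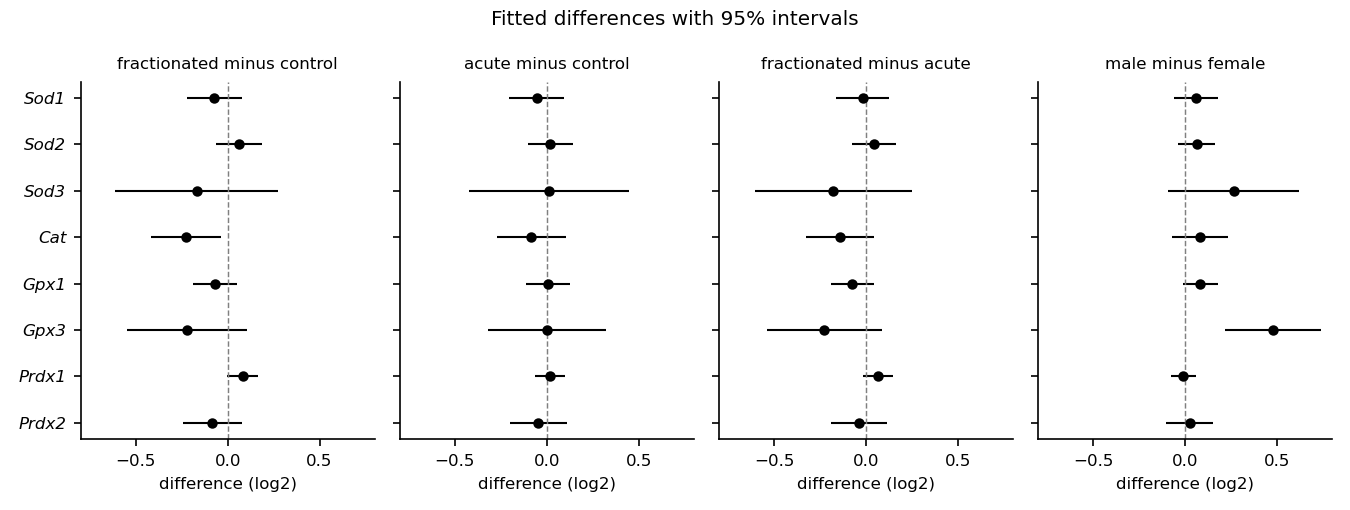
Fitted differences in log2 signal (x axis) with 95% intervals for the 8 enzymes (y axis) in 3 comparisons between groups and between males and females, from the fit of group and sex over 42 lungs. Intervals for Sod1, Sod2, Gpx1, Prdx1 and Prdx2 are narrow, those for Sod3 and Gpx3 wide, and the Gpx3 interval between males and females runs from 0.22 to 0.74.

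Fractionated replicate 13 weighed on these values in an uneven way. Sod3 stood at 8.04 in that lung against a median of 9.86 in the other 41, Gpx3 at 12.38 against 13.92, and Cat at 10.27 against 11.44. With Gpx1 (13.91 against 14.29), these lay below each of the other 41 lungs. Sod1 was 0.44 below the median of the others and Sod2 0.20 below, each with 2 lungs lower still. Prdx2 was instead above 38 of the 41 lungs, at 12.58 against a median of 12.35. In the same lung the mean log2 signal of the cell cycle markers was 11.74 against a median of 7.34 elsewhere, that of T and NK cell markers 11.15 against 8.23, and that of endothelial markers 9.67 against 12.13. Smooth muscle markers stood at 8.46 against 11.04. Over all fractionated against all control lungs, 4 of 4 tested endothelial markers were lower (median -0.29), as were 3 of 3 smooth muscle markers (-0.13), 7 of 7 alveolar type 2 markers (-0.13) and 4 of 4 red blood cell markers (-0.65), while 4 of 4 cell cycle markers were higher (0.41), with none called. Without replicate 13 the endothelial markers had a median of -0.13 (4 of 4 lower), the smooth muscle markers 0.02 (1 of 3 lower), the alveolar type 2 markers -0.07 (7 of 7 lower), the red blood cell markers -0.51 (4 of 4 lower) and the cell cycle markers 0.11 (4 of 4 higher), with none called by limma. The part of these cell types in the enzyme values was not tested.

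Between the sexes the picture differed for 1 enzyme. Gpx3 was 1.39-fold higher in males than in females (95% interval 1.16 to 1.67), and it was the 1 of 8 enzymes called, where 1.77% of all probes were called and 1.22% were called higher in males. In control lungs its signal ranged from 13.68 to 14.59 in 7 males (median 14.04) and from 13.34 to 14.06 in 6 females (median 13.60). In fractionated lungs it ranged from 12.91 to 14.57 in 7 males (median 13.72) and from 12.38 to 14.33 in 7 females (median 13.62). In acute lungs it ranged from 13.95 to 14.50 in 8 males (median 14.20) and from 12.91 to 14.43 in 7 females (median 13.64). Males and females overlapped in each group, while 20 of 22 males lay above the median of all females and 5 lay above the highest female.

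The fitted Gpx3 difference was 0.48 ± 0.13 (SE, log2; n = 22 and 20; 95% interval 0.22 to 0.74; limma, adjusted p = 0.0431). Male means exceeded female means on 7 of 7 slides, by 0.04 to 1.00, and with slide as a block the adjusted p was 0.0143 (limma). The call was lost without fractionated replicate 13, at 0.42 (limma, adjusted p = 0.0521), and held when slide was also a block, at 0.44 (limma, adjusted p = 0.0115). It was also lost with no filter on dim probes (limma, adjusted p = 0.0822) and in the authors' value table (limma, 0.43, adjusted p = 0.0528), which has no values for that lung.

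The other 7 enzymes were not called between males and females. Sod3 lay at 0.26 ± 0.18 (male minus female; 95% interval -0.09 to 0.62), Gpx1 at 0.08 ± 0.048 (interval -0.01 to 0.18) and Cat at 0.08 ± 0.076 (interval -0.07 to 0.24). Sod1, Sod2 and Prdx2 lay between 0.03 and 0.06, and Prdx1 at -0.0091. The dim second probe of Prdx2 lay at 0.23 (95% interval 0.01 to 0.45; limma, unadjusted p = 0.0384 and adjusted p = 0.264), and that of Sod1 at -0.0064. Without replicate 13 Sod3 lay at 0.18 and Cat at 0.03. The interaction of sex with the fractionated exposure called 0 of 8 enzymes (0.0% of all probes; 460 at an unadjusted p under 0.05), and that with the acute exposure 0 of 8 (0.0% of all probes; 370 at an unadjusted p under 0.05), by limma. Gpx1 had the smallest p among these, with an interaction of -0.22 ± 0.12 for the acute exposure (95% interval -0.46 to 0.01; limma, unadjusted p = 0.0605 and adjusted p = 1.0). With median scaling it was -0.43 (limma, unadjusted p = 0.0214 and adjusted p = 1.0). Its male mean exceeded its female mean by 0.20 in control lungs and differed by -0.02 in acute lungs.

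Cell type markers are given beside this contrast. All 5 alveolar type 1 cell markers were higher in males (median 0.22), as were 4 of 4 tested endothelial markers (0.22), 3 of 3 tested club cell markers (0.14) and 3 of 3 tested smooth muscle markers (0.27). Macrophage markers were higher in males for 1 of 4 tested (median -0.30), alveolar type 2 cell markers for 1 of 7 (-0.17), and cell cycle markers for 0 of 4 tested (-0.67). Of the markers in these lists 1 was called, Pdpn of alveolar type 1 cells, at 0.29 ± 0.067 (limma, adjusted p = 0.013). The summed linear signal of the alveolar type 1 markers ranged from 57650 to 92370 in males and from 31340 to 84080 in females, or from 56650 without replicate 13. That of the endothelial markers ranged from 7367 to 24980 in males and from 3653 to 25790 in females, or from 8132 without replicate 13. For macrophage markers it was 6066 to 36790 in males and 9940 to 36690 in females. For club cell markers the sums were 67260 to 111100 in males and 55410 to 102800 in females, or from 57810 without replicate 13. Smooth muscle markers summed to 9519 to 30730 in males and 4029 to 26940 in females, or from 9310 without replicate 13. For alveolar type 2 markers the sums were 101600 to 180100 in males and 94490 to 180800 in females, or from 112100 without replicate 13. Those of cell cycle markers were 563.2 to 1420 in males and 669.7 to 1690 in females without replicate 13, or up to 15800 with it. T and NK cell markers were lower in males for 4 of 4 tested (median -0.56), and red blood cell markers higher for 4 of 4 tested (0.65). Kdr, Scgb3a2, Cnn1, Ccnb1, Tnnt2, Cd68 and Ear2 were not tested for want of a named or detected probe. Heart and skeletal muscle markers, which a lung sample can carry, were higher in males for 4 of 4 tested (median 1.08). Their summed signal was 1431 to 28920 in males and 290.4 to 16660 in females, or from 2354 without replicate 13. Without replicate 13 the medians were 0.15 for alveolar type 1 markers, 0.13 for endothelial, 0.10 for club cell and 0.18 for smooth muscle markers, each still with every tested marker higher in males. They were -0.31 for macrophage markers, -0.20 for alveolar type 2, -0.47 for cell cycle, -0.34 for T and NK cell, 0.54 for red blood cell and 0.86 for heart and skeletal muscle markers. Of the markers, Pdpn stayed called without that lung (limma, 0.24, adjusted p = 0.00322), and Cd3g, of the T and NK cell list, was then also called (limma, -0.43, adjusted p = 0.0391). The part of these cell types in the Gpx3 difference was not tested.

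Genes that work with these enzymes were read from 8 lists of 91 genes, of which 72 were tested. None was called for fractionated or acute against control lungs or for fractionated against acute lungs by limma (0 of 72 each, beside 0.0% of all probes). An unadjusted p under 0.05 was reached by 3, 1 and 1 of the 72, beside 4.37%, 1.41% and 2.08% of all probes. In fractionated lungs the thioredoxin system was higher than in control lungs for 8 of 12 genes (median 0.08) and glutathione synthesis and recycling lower for 6 of 6 (median -0.10), with none called. The smallest p-values there belonged to Mgst2, a microsomal glutathione transferase (0.24 ± 0.11), Selenow, a small selenoprotein (-0.37 ± 0.17), and Glrx3, a glutaredoxin (0.26 ± 0.12), each with an adjusted p of 0.934 by limma. Thioredoxin itself, Txn1, which supplies electrons to peroxiredoxins, lay at 0.26 ± 0.14, and Nfe2l2, which encodes Nrf2, at -0.22 ± 0.13. In acute lungs the smallest p was that of Ncf1, a cytosolic subunit of the phagocyte NADPH oxidase (0.38 ± 0.18; limma, adjusted p = 1.0). Peroxisome assembly genes, which serve the compartment of Cat, were lower in fractionated lungs for 8 of 10 (median -0.03), none called.

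Between males and females, 7 of the 72 related genes were called, all higher in males (9.72%, against 1.77% of all probes). The first share counts each gene by its brightest tested probe and the second counts every tested probe, so they are not like measures. The lists were also chosen with earlier results of these data known, so the higher share is no evidence about the lists. They belong to 5 of the 8 lists. Called were 2 of 6 glutathione and other peroxidases (Gpx2 and Gpx4), 1 of 12 thioredoxin system genes (Srxn1), 2 of 6 genes of glutathione synthesis and recycling (Gss and Chac1), 1 of 13 glutathione transferases (Mgst3) and 1 of 8 genes of Nrf2 regulation and other targets (Nqo1). Metal delivery, selenoproteins and repair, makers of superoxide and hydrogen peroxide, and peroxisome assembly had none called, of 9, 8 and 10 tested.

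Srxn1, sulfiredoxin, which restores over-oxidised peroxiredoxins such as Prdx1 and Prdx2, ranged from 8.43 to 8.97 in control males (median 8.66) and from 8.10 to 8.31 in control females (median 8.21). It ranged from 8.49 to 9.17 in fractionated males (median 8.82) and from 7.67 to 8.60 in fractionated females (median 8.44), and from 8.57 to 9.13 in acute males (median 8.69) and 8.17 to 8.45 in acute females (median 8.26). Every control male lay above every control female, and every acute male above every acute female, while 6 of 7 fractionated males lay above the highest fractionated female. The fitted difference was 0.49 ± 0.066 (1.41-fold; limma, adjusted p = 3.01e-06), and it was positive on 7 of 7 slides. A second probe of the gene gave 0.50 ± 0.078 (limma, adjusted p = 9.88e-05), and the dimmest of its probes 0.29 ± 0.083 (limma, adjusted p = 0.0576). Its promoter window is shown from base -110 to base -30 (chr2:152105414-152105494, plus strand, RefSeq, build GRCm38.p6) because it holds a pair of AP-1 sites, in capitals, both on the strand opposite to the gene. An antioxidant response core also lies in this window, from base 29 after the start. Of the 7 called related genes, Srxn1 was the only 1 with an AP-1 site in its windows (against 5.2% of all windows). It was also the only 1 with an antioxidant response core (against 12.4%), so Nqo1 held neither.
Srxn1: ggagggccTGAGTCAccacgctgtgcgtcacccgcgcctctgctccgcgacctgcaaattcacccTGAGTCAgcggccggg

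Nqo1, a quinone reductase and a textbook Nrf2 target, was detected on 32 arrays only. Its signal ranged from 5.78 to 7.59 in control males (median 6.50) and from 5.50 to 5.85 in control females (median 5.71), with like levels in the irradiated groups: fractionated means were 6.56 in males and 5.67 in females, acute means 6.66 and 5.73. Of 22 males 16 lay above the highest female. The fitted difference was 0.87 ± 0.14 (1.83-fold; limma, adjusted p = 9.55e-05), and it was positive on 7 of 7 slides. The size depended on the processing of this dim probe, from 0.37 with no background correction to 1.11 in the authors' value table, and the call held in both (limma, adjusted p = 0.00028 and 0.000112).

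Gpx2, an epithelial glutathione peroxidase, ranged from 9.19 to 10.91 in control males (median 10.04) and from 9.21 to 9.85 in control females (median 9.41), and 12 of 22 males lay above the highest of the 20 females. Its difference was 0.74 ± 0.14 (1.67-fold; limma, adjusted p = 0.00218). Chac1, which degrades glutathione, lay at 0.61 ± 0.13 (1.53-fold; limma, adjusted p = 0.00973). Both were higher in males on 7 of 7 slides, and the calls of Srxn1, Nqo1, Gpx2 and Chac1, each by its brightest probe, held with slide as a block, with median scaling, with no background correction, with no filter, in the authors' value table and without replicate 13.

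The other called genes moved less. Gss, glutathione synthetase, lay at 0.31 ± 0.077 (limma, adjusted p = 0.0259), or 0.18 with no background correction (limma, adjusted p = 0.0278), with 2 further detected probes at 0.21 and 0.22 that were not called. Mgst3, a microsomal glutathione transferase, lay at 0.27 ± 0.071 (limma, adjusted p = 0.0329), and its second probe at 0.23 was not called. Gpx4, which reduces lipid peroxides in membranes, lay at 0.16 ± 0.040 (limma, adjusted p = 0.0215), and its 2 dimmer probes, at 0.10 and 0.01, were not called. Among genes that were not called, Gstm5 lay at 0.40 ± 0.12 (limma, adjusted p = 0.0703), Keap1, the repressor of Nrf2, at 0.13 ± 0.046, and Rac2, a subunit of the NADPH oxidase complex, at -0.46 ± 0.20. None of the 7 called genes was called between irradiated and control lungs. Cell type markers also differed between the sexes. Over 40 lungs without replicate 13, with slide means subtracted, r with alveolar type 2 markers ran from -0.70 (Nqo1) to -0.22 (Gpx4) for these genes. With heart and skeletal muscle markers r ran from 0.10 (Chac1) to 0.70 (Gpx2). Both sexes were pooled here, so the difference between males and females is part of each r. The part of cell types in the differences of these genes between the sexes was not tested.

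**Figure D3:**
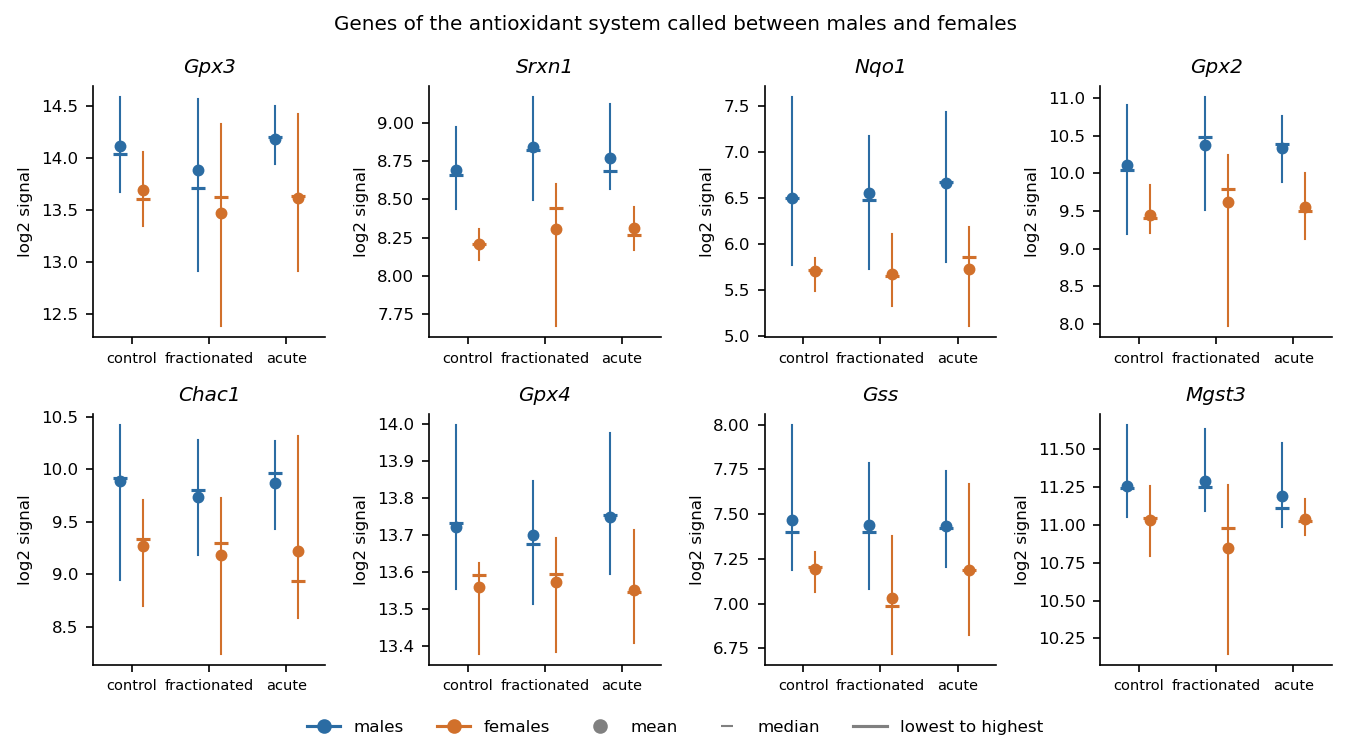
Normalised log2 signal (y axis) in males (blue) and females (orange) of each group (x axis) for Gpx3 and the 7 related genes called between the sexes, with the mean as a point, the median as a dash and the lowest to highest lung as a line. Male means lie above female means in all 3 groups for each gene, and the ranges of Srxn1 do not overlap in control and acute lungs.

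The enzymes differed in how much they varied and in what they varied with. Over 41 lungs without replicate 13, the standard deviation was 0.53 for Sod3 and 0.45 for Gpx3 (percentiles 91.5 and 84.2 of all tested probes), and 0.0935 for Prdx1 (percentile 0.106), against a median of 0.302 over all probes. Slide accounted for 53.8% of the variance of Sod3, 50.0% of that of Sod2, 45.9% for Cat and 32.8% for Gpx3, and for 13.9% for Gpx1, against a median of 34.2% over all probes. Mean Sod3 was 10.38, 10.42 and 10.002 on slides 3, 4 and 5, and between 9.43 and 9.87 on the other 5 slides. Sex, entered after slide, accounted for 23.6% of the variance of Gpx3 and at most 4.35% for the other 7 enzymes, against a median of 2.06%. Group, entered last, accounted for 20.1% of the variance of Prdx1 and 12.3% of that of Cat, against a median of 2.08%.

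Because several enzymes differed between slides, the likeness of their patterns was read after subtracting slide means, over 40 lungs of 7 slides without replicate 13. These correlations are descriptions over arrays that share slides and a normalisation. Males and females were pooled in them, so a difference between the sexes, such as that of Gpx3, is part of r. Gpx3 followed Sod1 (Pearson r = 0.77, Spearman rho = 0.67) and Sod3 (r = 0.73, rho = 0.73), and Sod1 followed Sod3 (r = 0.63, rho = 0.60). Without the 2 lungs farthest from the median of the first gene in each pair, r was 0.65 for Sod1 with Gpx3, 0.67 for Sod3 with Gpx3 and 0.55 for Sod1 with Sod3. By this measure Sod2 and Prdx1 had a lower r (0.41, rho = 0.48), and Sod1 and Sod2 had a negative r (-0.42, rho = -0.33). With slide means kept, r was 0.54 for Gpx3 with Sod1, 0.81 for Gpx3 with Sod3, 0.29 for Sod1 with Sod3, 0.55 for Sod2 with Prdx1 and -0.14 for Sod1 with Sod2. With median scaling in place of the quantile step, r was 0.76 for Gpx3 with Sod1, 0.74 for Gpx3 with Sod3 and 0.63 for Sod1 with Sod3. It was then 0.67 for Sod2 with Prdx1 and -0.17 for Sod1 with Sod2. Gpx1 had an r of 0.55 with Prdx1 and 0.51 with Sod2 under median scaling, against 0.07 and 0.2 with the quantile step. The likeness of Sod2, Prdx1 and Gpx1 therefore depended on the normalisation.

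Gpx3, Sod1 and Sod3 each had positive r with the alveolar type 1, club, endothelial and smooth muscle markers, and negative r with the alveolar type 2 markers (-0.68, -0.59 and -0.62), while r with the ciliated cell markers was -0.03, 0.08 and -0.18. Gpx3 followed the mean signal of alveolar type 1 cell markers (r = 0.90, rho = 0.86), club cell markers (r = 0.88, rho = 0.84) and endothelial markers (r = 0.86, rho = 0.82), and ran against macrophage markers (r = -0.81, rho = -0.72) and cell cycle markers (r = -0.75, rho = -0.76). Sod1 followed endothelial markers (r = 0.85, rho = 0.78) and ran against macrophage markers (r = -0.86, rho = -0.83). Sod3 was nearest to smooth muscle markers (r = 0.83, rho = 0.82) and fibroblast markers (r = 0.80, rho = 0.79), and leaving out the 2 farthest lungs gave 0.82 and 0.80. Prdx2 had its highest Pearson r with red blood cell markers (r = 0.56, rho = 0.29), and without the 2 farthest lungs r was 0.41. By Spearman rho, adipose tissue markers (r = 0.38, rho = 0.53) and heart and skeletal muscle markers (r = 0.37, rho = 0.39) stood above them. Without the 2 farthest lungs r with adipose tissue markers was 0.43. Control replicate 6, with the highest Prdx2 signal, also had the highest mean of red blood cell markers, at 12.88 against a median of 10.81 in the other lungs, although another lung reached 12.82. Cat had no marker list above 0.37 (adipose tissue), and Prdx1 ran mildly with macrophage markers (r = 0.43, rho = 0.37) and against endothelial ones (r = -0.49, rho = -0.50).

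**Figure D4:**
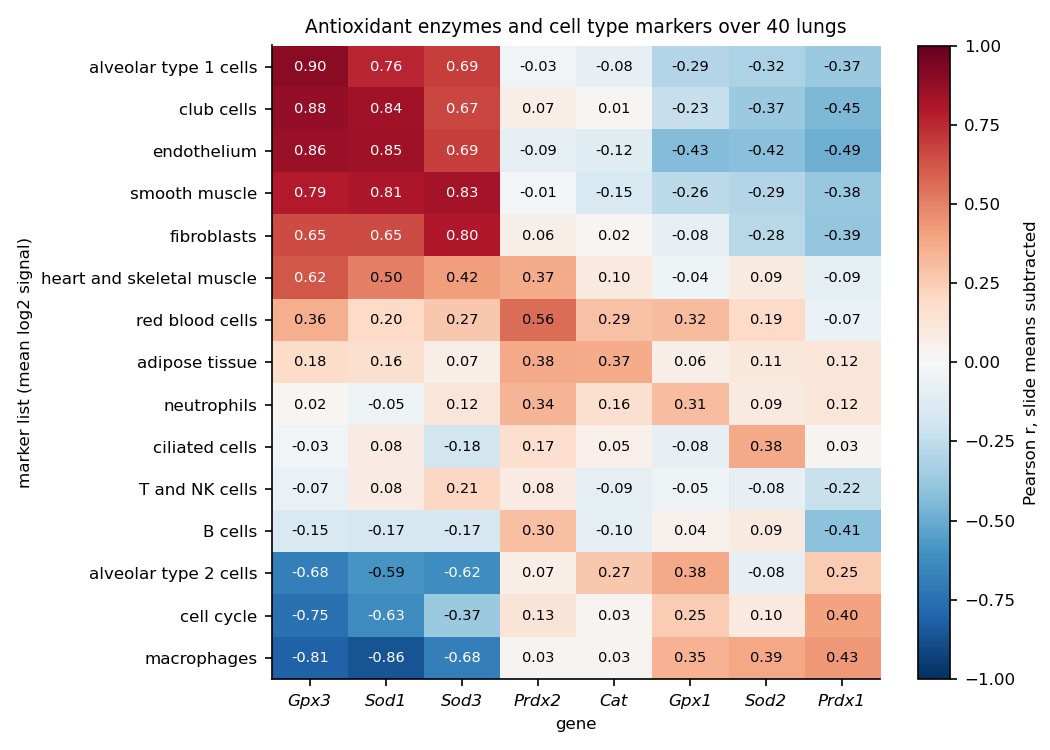
Pearson correlation of each enzyme (x axis) with the mean log2 signal of each cell type marker list (y axis), from blue at -1 to red at 1. It was taken over 40 lungs with both sexes pooled, after subtraction of slide means. Gpx3, Sod1 and Sod3 share positive values for alveolar type 1, club, endothelial and smooth muscle markers and negative values for macrophage markers. For these lists the other 5 enzymes show weaker values.

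The single genes most like each enzyme, by the same measure over the 40 lungs, were as follows. For Gpx3 they were Gria1 (r = 0.92), Upk1b (0.92) and Plpp1 (0.91). For Sod1 they were Gata2 (0.89), Prdm6 (0.88) and Tbx3 (0.88), and for Sod3 Dlc1 (0.86), the smooth muscle gene Tagln (0.85) and Tmem119 (0.84). Without the subtraction of slide means Dlc1 fell to 0.15 with Sod3, while Tagln stayed at 0.83. Prdx2 was nearest to Nt5c3 (0.70), Trim10 (0.67) and Glrx5 (0.67), and Cat to Rida (0.63), the peroxisomal sterol carrier gene Scp2 (0.57) and Cyp2e1 (0.57), with Rida at -0.11 when slide means were kept. Gpx1 was nearest to Btg3 (0.67), Cdc25b (0.65) and Slc25a39 (0.62), Sod2 to Nme7 (0.72), Aoc1 (0.70) and Insig1 (0.67), and Prdx1 to Polr1e (0.67), Agpat1 (0.65) and Ppa1 (0.63). No enzyme of the set was among the 3 nearest genes of another.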

How the data were processed

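Total RNA of 1 whole left lung per mouse was labelled and hybridised to Illumina BeadChip arrays, 1 array per mouse, per the labels' protocols. The authors' deposited table gives, per the file headers, an unnormalized linear signal intensity of each probe on each array, with its detection p-value. A deposited value table holds log2 values of 41 arrays, normalized by the authors. Its sorted columns share a median of 3.96, and its background step and software are not given in the sources used here. It was used as an alternative.

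The intensities of 42 arrays were background corrected (normexp, background inferred from detection p), offset by 16, quantile normalized and log2 transformed with neqc in limma 3.58.1 under R 4.3.3. Tests were run on the 17927 of 45281 probes that had a detection p below 0.01 in 13 or more arrays. Names came from the platform annotation, updated through RefSeq genes (assembly GRCm38.p6): 34885 probes had 1 symbol, 18 several and 10378 none, and only the first kind was used to name genes. Group and sex were terms of 1 limma fit with a mean trend, and two-sided p-values were adjusted by Benjamini-Hochberg. The script was tested on simulated data. Precision is limited by how many arrays there are: a typical (median) 95% interval reached 0.25 (log2) to either side for fractionated against control.

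The enzymes, the related lists and the marker lists were chosen with earlier results of these data known. Named beside the enzymes were called genes of each related list, those of its 3 smallest p, and the 3 genes of highest slide-centred correlation with each enzyme. Rac2, Keap1 and Gstm5 fall under the same rule. Alternatives covered slide as a block, median scaling, no background correction, no filter, the authors' value table, replicate 13 left out, no sex term, each sex alone, and other probes of a gene. No 2 arrays held identical values. The marker lists without fractionated replicate 13 were an alternative chosen after seeing the data.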

Additional observations from a re-analysis of the deposited data

How the results depend on the processing

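None of the 8 enzymes was called between groups under any alternative, and each kept its direction for fractionated against control lungs. Directions turned for differences that were not called, many of them near 0. For acute against control these were Sod1 by its second probe (0.17), Sod2 in males (-0.0015), Sod3 with slide as a block (-0.0059, or -0.0034 also without replicate 13) and in females (-0.090), and Gpx1 with slide as a block (-0.0042, or -0.0038 also without replicate 13) and in males (-0.097). In the same comparison Gpx3 turned with no sex term (-0.00027) and in females (-0.074), Prdx1 in males (-0.028) and Prdx2 in females (0.036). For fractionated against acute, Sod1 turned with median scaling (0.0042), in the authors' value table (0.010), without replicate 13 (0.0098) and without it with slide as a block (0.0049), and between the sexes Sod1 turned by its second probe (-0.0064). The number of probes called between males and females, 318, became 538 with slide as a block, 186 with no filter and 868 without replicate 13 with slide as a block. The number of enzymes called, 1, became 0 with no filter, in the authors' value table and without replicate 13. Gpx4 lost its call with median scaling (limma, adjusted p = 0.114) and with no filter (0.0737), as did Gss (0.0682) and Mgst3 (0.0755) with no filter. The causes were not tested. No paired analysis was possible because replicate numbers were assigned in accession order and pair no samples. Signal over background limits Nqo1, which was detected on 32 of 42 arrays.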
